A study of Mus musculus with 10 samples.

Results

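Skeletal muscle contracts through the sarcomere, and the 39 mouse genes described here encode its structural proteins apart from the myosin heavy chains and actins. They were taken by symbol: the troponins, tropomyosins, nebulin and leiomodins of the thin filament, the myosin light chains and myosin-binding proteins of the thick filament, titin, the myomesins of the M-band, and Z-disc proteins with desmin. All 39 symbols were found among the 57010 gene identifiers of the deposited table, and 37 of them had a mean value of at least 3 on its log2 scale and were tested, among 15223 tested genes in all. The remaining pair, Myl3 and Myoz3, were too scarce to test.

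RNA came from C2C12 cells, a mouse muscle line labelled WT that was grown as myoblasts on collagen and fused into multinucleated myotubes in low-serum medium with insulin. After 3 days of differentiation the cultures received adenovirus carrying either Gfp only (GFP group) or Arrdc2 together with Gfp (Arrdc2 group), and they were harvested 48 h later. All cultures therefore received virus and Gfp, and all are of a single immortalised line. The 10 libraries form 2 groups of 5. Arrdc2 is an alpha-arrestin gene, and the title of the series links it to muscle disuse and to thinner C2C12 myotubes, so the comparison bears on the transcripts that build the myotube's contractile apparatus. Nothing in the labels says whether the 5 libraries of a group are separate cultures, so p-values reflect only the spread between these libraries, which may be technical.

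In the sarcomere, myosin thick filaments slide along actin thin filaments. Calcium binds troponin C, which moves troponin I and, through troponin T, shifts tropomyosin so that myosin can bind actin. Z-discs anchor the thin filaments through alpha-actinin, M-bands tie the thick filaments through myomesins, and titin spans from Z-disc to M-band. Many of these proteins exist as separate genes for fast and slow fibres, and cultured myotubes also express embryonic and cardiac forms that adult fast muscle largely lacks.

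Normalised reads are whole read counts solved from the deposited regularized log (rlog) values and divided by a size factor per library. Recovered depth was 18.93 to 28.65 M reads per library. In every list of values below, GFP libraries come in the order 3, 4, 5, 6 and 7, and Arrdc2 libraries in the order 6, 7, 9, 10 and 11, as their columns are numbered. The Arrdc2 transcript itself had 103 ± 14.4 and 132 ± 15.6 normalised reads in GFP and Arrdc2 (SD, n = 5), with 3 Arrdc2 libraries above the highest GFP library (1.29-fold, log2 difference 0.11 ± 0.03 SE, adjusted p by limma = 0.0178). Leaving out GFP library 3 or 7 or Arrdc2 library 9 ended that call (adjusted p by limma = 0.0501, 0.052 and 0.057), as did quantile normalization (0.0518). The sources used here do not say whether viral transcripts were counted towards this gene. Markers of C2C12 myotubes were present in both groups, among them Myog, Ckm, Myh3 and the fusion factors Mymk and Mymx. Libraries of a group were not equally close: the mean chi-square per gene between library pairs lay between 2.62 and 8.24 in GFP and between 2.87 and 17.5 in Arrdc2, highest for Arrdc2 libraries 6 and 10. Arrdc2 library 10 had the highest value of its group for 16 of the 37 tested members, Arrdc2 library 9 the lowest for 14 and GFP library 6 the lowest for 18.

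The 39 genes took 2.67% to 2.73% of all reads in the GFP libraries and 2.46% to 2.62% in the Arrdc2 libraries. Levels between genes are compared here as mean normalised reads per kilobase of the principal transcript (per kb). In GFP cells Mylpf, the fast regulatory myosin light chain, stood highest at 81278 reads per kb. It was followed by the slow and cardiac troponin C Tnnc1 at 51859, the fast essential light chain Myl1 at 40091 and the fast troponin T Tnnt3 at 32596 reads per kb. The cardiac and embryonic troponin T Tnnt2 reached 23573 reads per kb, above the slow form Tnnt1 at 9138, so all 3 troponin T genes were active in these myotubes. At the other end stood the capping protein Tmod4 at 41.9, the Z-disc protein Myoz1 at 105 and Myot at 132 reads per kb. The ventricular and slow essential light chain Myl3 had 0 to 2.29 normalised reads in the GFP libraries and 0 to 1.76 in the Arrdc2 libraries. Myoz3 had 3.11 to 6.42 and 2.97 to 8.81 normalised reads.

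**Figure D1:**
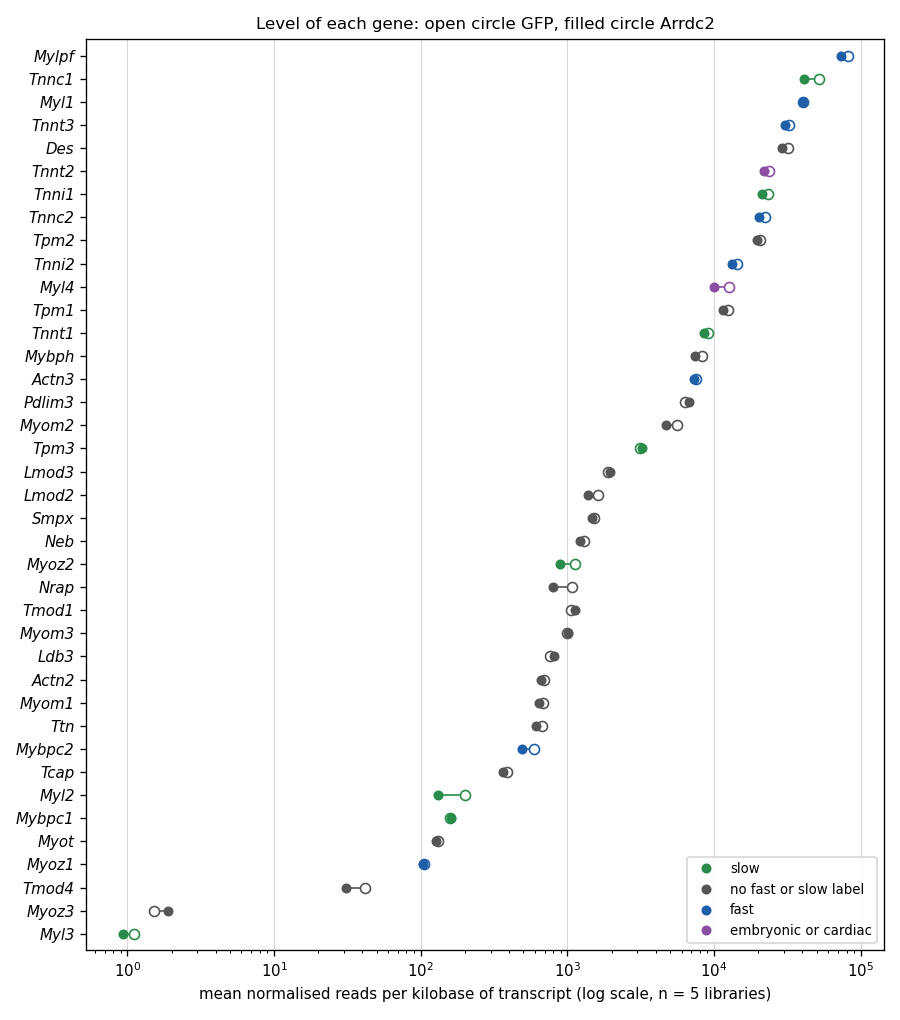
Mean normalised reads per kilobase of transcript (log axis) for all 39 genes, with GFP as open and Arrdc2 as filled circles, n = 5 libraries each, coloured by fast, slow or embryonic and cardiac form. Mylpf is highest and Myl3 lowest, and the shift between groups is small beside the span between genes.

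Of the 37 tested sarcomere structural genes, 14 fell and 0 rose at a limma adjusted p under 0.05, where "fell" and "rose" are used only for genes past that threshold. The 14 were Tnni1, Tnnc1, Tnnc2, Tpm1, Lmod2 and Tmod4 of the thin filament, Mybpc2, Myl2, Myl4 and Mylpf of the thick filament, Myom2 of the M-band, and Myoz2, Nrap and Des of the Z-disc and its surrounding filaments. Their reads were 7.85% to 34.9% lower. The share of tested members that fell was 37.8%, against 15.8% of all tested genes. Members were chosen with earlier results of these data known, so the shares describe the list and do not test it. Because calls are more frequent among abundant genes, the share is also given at a mean rlog value of 10 or more, where 12 of 31 members fell (38.7%) against 25.7% of all such genes. Over all tested genes 14.5% rose, and 30.3% were called in either direction. By limma 3 members were higher at an unadjusted p under 0.05 (Tmod1, Ldb3 and Pdlim3), and voom on recovered reads called 0 members higher and 14 lower, 13 of them shared with the first test. The median log2 difference was −0.08 over the 37 members and 0.00 over all tested genes, and 29 of the 37 differences were negative. For 4 members (Nrap, Tnnc1, Lmod2 and Myom2) every Arrdc2 library lay below every GFP library. That is 10.8% of the tested members, close to the 11% of all tested genes for which this held. The reverse order held for no tested member and for 8.72% of all tested genes.

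**Figure D2:**
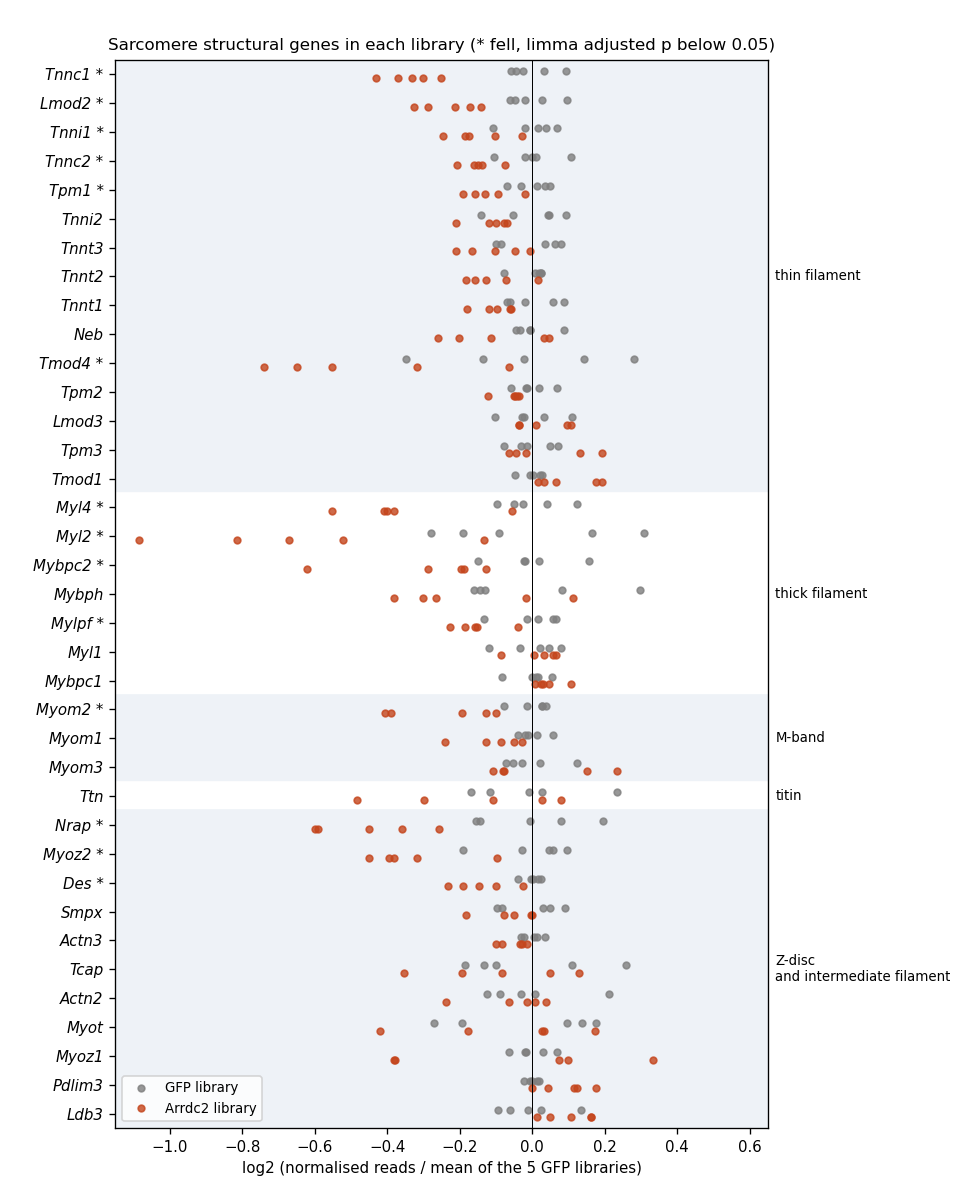
Each point is 1 library, as log2 of its normalised reads over the mean of the 5 GFP libraries, for the 37 tested genes grouped by filament class. Arrdc2 points lie mostly to the left for the 14 genes marked with an asterisk, and overlap the GFP points for 10 of these 14.

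Leaving out 1 library gave between 11 and 18 members that fell, with 18 without Arrdc2 library 10, and 0 to 2 that rose. Reads scaled by total depth gave 9 members lower and 3 higher (Tmod1, Ldb3 and Pdlim3), and so did quantile normalization. Rises were 63.3% of the calls over all genes by voom scaled by total depth, against 47.6% by voom with size factors. Centring each library on its median moved them from 47.9% to 37.4% of the limma calls, with 18 members lower and 0 higher. In these bulk libraries fewer myotubes and less RNA per myotube cannot be told apart. Of the 12 differentiation markers of the same cultures only Acta1, skeletal actin, fell (1.14-fold lower, adjusted p by limma = 0.0087). It was not called under quantile normalization (adjusted p by limma = 0.106), and no other marker was called. Over all tested genes 15.8% fell. Of the 12 differences 7 were negative (median log2 difference −0.01). Myog, Cav3 and Mef2c were at 0.880-fold, 0.888-fold and 0.934-fold of GFP (adjusted p by limma = 0.0748, 0.0658 and 0.0983). Ckm and Myod1 were at 1.07-fold and 1.06-fold (0.0988 and 0.336). With 1 library left out, Myog, Ckm and Myod1 were called in 1 fit each, and Cav3 and Mef2c in 2. Whether differentiation differed was not tested. The summed reads of all 12 markers were 232688 to 254265 in GFP and 226052 to 237313 in Arrdc2 libraries.

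Promoters of the genes with the largest falls are shown because several genes moved in the same direction. RefSeq sequences (build GRCm38.p6, 250 bases before to 50 after the annotated start) matched 29 of the 39 members, 13 of the 14 that fell among them. The 4 with the largest log2 differences follow, 5′ to 3′ on the gene's strand. Capitals mark a match, on either strand, to the E-box CAGCTG bound by myogenic factors such as MyoD and myogenin, the MCAT element CATTCC bound by TEAD factors, the MEF2 site, the CArG box of SRF, or the letters TATAAA.

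Nrap, chr19:56389989-56390288, minus strand: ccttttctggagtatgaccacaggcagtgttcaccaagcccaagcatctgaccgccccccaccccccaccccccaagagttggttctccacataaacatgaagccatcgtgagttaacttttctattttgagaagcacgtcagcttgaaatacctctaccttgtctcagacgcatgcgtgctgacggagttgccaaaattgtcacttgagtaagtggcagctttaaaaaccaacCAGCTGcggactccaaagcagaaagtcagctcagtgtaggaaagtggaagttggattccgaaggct

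Myl4, chr11:104550413-104550712, plus strand: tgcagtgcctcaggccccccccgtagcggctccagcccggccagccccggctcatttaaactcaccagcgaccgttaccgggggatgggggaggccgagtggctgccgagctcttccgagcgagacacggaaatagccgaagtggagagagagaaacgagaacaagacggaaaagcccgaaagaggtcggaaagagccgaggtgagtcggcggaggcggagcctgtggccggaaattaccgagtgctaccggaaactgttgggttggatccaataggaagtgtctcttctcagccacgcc

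Tnnc1, chr14:31208062-31208361, plus strand: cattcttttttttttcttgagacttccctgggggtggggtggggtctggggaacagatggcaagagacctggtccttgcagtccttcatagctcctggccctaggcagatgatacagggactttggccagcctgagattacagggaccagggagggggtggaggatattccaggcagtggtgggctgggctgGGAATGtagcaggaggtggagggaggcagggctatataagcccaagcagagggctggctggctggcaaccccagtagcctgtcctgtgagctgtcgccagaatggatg

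Myoz2, chr3:123034938-123035237, minus strand: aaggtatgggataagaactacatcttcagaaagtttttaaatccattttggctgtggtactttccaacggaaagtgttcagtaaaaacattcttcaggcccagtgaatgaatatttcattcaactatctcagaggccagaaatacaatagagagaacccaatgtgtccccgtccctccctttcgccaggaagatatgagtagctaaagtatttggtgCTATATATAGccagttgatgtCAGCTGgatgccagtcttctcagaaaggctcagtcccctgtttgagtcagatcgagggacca

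Nrap and Myoz2 each held 1 CAGCTG, starting 16 and 12 bases before the annotated start, Myoz2 also held 1 MEF2 site, Tnnc1 held 1 MCAT element, and the Myl4 window held none of these letters. Over all members CAGCTG was present in 16 of 34 promoters (47.1%), 9 of 15 (60%) in members that fell and 7 of 19 (36.8%) in the others, against 16.3% of all 32851 mouse promoters in the table. These are shares of promoters, not of genes. The 34 promoters belong to 29 genes, the 15 to 13 genes and the 19 to 16. Tnni1, Myl2, Tnnt2, Tpm3 and Ldb3 have more than 1 promoter. The windows of Tnni1 overlap and hold the same E-box, and those of Ldb3 the same CArG box, so these sites were counted more than once. CATTCC was present in 29.4% of member promoters (20% in members that fell, 36.8% in the others) and in 14.7% of all. The CArG box was present in 4 of 34 member promoters (11.8%), none of them of a member that fell, and in 1.63% of all. The MEF2 site was present in 8.82% of member promoters (6.67% in members that fell, 10.5% in the others) and in 3.19% of all. TATAAA was present in 11.8% of member promoters (6.67% in members that fell, 15.8% in the others) and in 13.6% of all. The E-box reads the same on both strands. A match is a description of the letters, and its part in the differences was not tested.

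Troponin C fell in both of its forms. Tnnc1, the slow and cardiac calcium sensor, had 39896, 36707, 36248, 35893 and 38209.6 normalised reads in the GFP libraries and 28943, 30359, 27739.8, 31388 and 29686 in the Arrdc2 libraries. Every Arrdc2 library was below the lowest GFP library, with little spread inside either group. Tnnc1 was 1.26-fold lower, 95% interval 1.19 to 1.34 (log2 difference −0.27 ± 0.03 SE, adjusted p by limma = 8.77e-06). Its fast counterpart Tnnc2 had 16892, 15679, 15803, 14579 and 15471 normalised reads in the GFP libraries and 14027, 14239, 13584, 14884 and 14132 in the Arrdc2 libraries. In this case 4 Arrdc2 libraries were below the lowest GFP library and library 10 was within the GFP range. Tnnc2 was 1.11-fold lower, 95% interval 1.04 to 1.17 (log2 difference −0.12 ± 0.03 SE, adjusted p by limma = 0.0109). Its call was lost under quantile normalization (log2 difference −0.07, adjusted p by limma = 0.128) and under scaling by total reads (0.0506). Tnnc2 shares 592 of its 800 exon bases with Ube2c, a cell-division gene on the opposite strand, and the sources used here do not give the strand setting of the counting, so the count of Tnnc2 is uncertain. Ube2c itself rose (1.37-fold, adjusted p by limma = 0.000477).

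Of the troponin I genes, which inhibit actin and myosin binding at rest, the slow form fell. Tnni1 had 27139, 28178, 27593, 24887 and 26465 normalised reads in the GFP libraries and 22655, 23778, 23619.6, 26348 and 24999 in the Arrdc2 libraries. Arrdc2 libraries 10 and 11 and GFP library 6 lay in the overlap of the groups, and the other 3 Arrdc2 libraries were below every GFP library. The difference was 1.11-fold (log2 difference −0.12 ± 0.04 SE, adjusted p by limma = 0.0186), and leaving out GFP library 4 ended the call (adjusted p by limma = 0.0579). Quantile normalization turned its sign (log2 difference 0.02, adjusted p by limma = 0.757), and the call was also lost with no filter on low values (0.0513) and under scaling by total reads (0.0767). The fast form Tnni2 had 11735, 11365, 10595, 9979 and 11329 normalised reads in the GFP libraries and 10419, 10260.1, 9501, 10475 and 10132 in the Arrdc2 libraries. All but 1 Arrdc2 library lay within the GFP range and Tnni2 was not called (0.925-fold of GFP with a 95% interval of 0.868 to 0.985, adjusted p by limma = 0.0603). Leaving out GFP library 6 or Arrdc2 library 10 brought it past the threshold (adjusted p by limma = 0.0138 and 0.0458).

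Troponin T links the troponin complex to tropomyosin, and none of its 3 genes was called. The fast gene Tnnt3 had 34273, 33652, 30602, 30945 and 34649 normalised reads in the GFP libraries and 29252, 30554, 28359, 31786 and 32664 in the Arrdc2 libraries. The slow gene Tnnt1 had 9759, 9255, 8942, 8996 and 9974 normalised reads in the GFP libraries and 8769.8, 8644, 8282, 8999 and 9017 in the Arrdc2 libraries. The cardiac and embryonic gene Tnnt2 had 28457, 28775, 28648, 26783 and 28773 normalised reads in the GFP libraries and 24924, 25892, 25372, 28589 and 26880.3 in the Arrdc2 libraries. In all 3 genes Arrdc2 libraries 6, 7 and 9 were below the lowest GFP library and libraries 10 and 11 lay inside the GFP range. The folds were close to each other: Tnnt3 0.93-fold of GFP with a 95% interval of 0.871 to 0.993 (adjusted p by limma = 0.101), Tnnt1 0.932-fold of GFP with a 95% interval of 0.881 to 0.987 (adjusted p by limma = 0.0607) and Tnnt2 0.93-fold of GFP with a 95% interval of 0.879 to 0.984 (adjusted p by limma = 0.062). Tnnt1 passed the threshold when GFP library 5, GFP library 6 or Arrdc2 library 10 was left out (adjusted p by limma = 0.0377, 0.0483 and 0.0464). Tnnt2 did so when GFP library 6 or Arrdc2 library 10 was left out (adjusted p by limma = 0.0387 and 0.0115), and Tnnt3 when GFP library 5 was (adjusted p by limma = 0.0493). Voom on recovered reads with size factors called Tnnt2 lower (adjusted p = 0.0489). Library weights called Tnnt1, Tnnt2 and Tnnt3 lower (adjusted p by limma = 0.0268, 0.0211 and 0.0433). Centring on the median called Tnnt1 and Tnnt2 (adjusted p by limma = 0.0356 and 0.0326). Quantile normalization and scaling by total reads called none of them.

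Of the tropomyosins, the coiled coils that lie along actin, Tpm1 fell. Tpm1 had 24181, 23124, 24433, 22478 and 23811 normalised reads in the GFP libraries and 20693, 21578, 21145, 23296 and 22092 in the Arrdc2 libraries. Arrdc2 library 10 was inside the GFP range and the other 4 were below it. Tpm1 differed by a small amount (1.09-fold lower, log2 difference −0.09 ± 0.03 SE, adjusted p by limma = 0.0302). Leaving out GFP library 3, 5 or 7 ended that call (adjusted p by limma = 0.0749, 0.0655 and 0.0618), as did leaving out Arrdc2 library 6, 7 or 9 (0.0678, 0.0619 and 0.075). It was also lost under quantile normalization (log2 difference −0.04, adjusted p by limma = 0.439), scaling by total reads (0.135) and no filter on low values (0.0667). Tpm2 (0.96-fold of GFP with a 95% interval of 0.915 to 1.01, adjusted p by limma = 0.243) and the slow form Tpm3 (1.03-fold of GFP with a 95% interval of 0.958 to 1.1, adjusted p by limma = 0.576) were not called. Tpm1 and Tpm3 also make non-muscle isoforms, which a count per gene does not separate, and Tpm3 has near-identical copies such as Tpm3-rs7, which makes its count uncertain.

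Of the proteins that set thin-filament length, Lmod2 and Tmod4 fell. Lmod2, a leiomodin that nucleates and elongates actin at pointed ends, had 3244, 3137, 3053, 3077 and 3401 normalised reads in the GFP libraries and 2827, 2885, 2541, 2609 and 2748 in the Arrdc2 libraries. No Arrdc2 library reached the lowest GFP library. Lmod2 was 1.17-fold lower, 95% interval 1.1 to 1.25 (log2 difference −0.17 ± 0.03 SE, adjusted p by limma = 0.000648). Its relative Lmod3 had 4212 ± 232 and 4297 ± 206 normalised reads in GFP and Arrdc2 (SD, n = 5) and was not called (1.02-fold of GFP with a 95% interval of 0.958 to 1.09, adjusted p by limma = 0.656). The pointed-end cap Tmod1 was not called (1.07-fold of GFP with a 95% interval of 1.01 to 1.13, adjusted p by limma = 0.0806), with 4 Arrdc2 libraries above the highest GFP library. It was called higher when Arrdc2 library 10 was left out (adjusted p by limma = 0.0368). Tmod1 shares 1287 of its 3946 exon bases with Tstd2 on the opposite strand, a gene that fell (1.12-fold). Tmod4, the skeletal muscle cap, was scarce, with 58.4, 52, 48.1, 41.5 and 64.2 normalised reads in the GFP libraries and 36, 33.7, 50.5, 42.3 and 31.7 in the Arrdc2 libraries. The ranges overlapped, with Arrdc2 libraries 6, 7 and 11 below every GFP library. Tmod4 fell on the rlog scale (log2 difference −0.07 ± 0.02 SE, adjusted p by limma = 0.0461), a scale that shrinks a gene with so few reads (1.35-fold lower, 95% interval 1.06 to 1.72 in recovered reads), and voom on recovered reads did not call it (adjusted p = 0.0532). Leaving out GFP library 3, 4 or 7 ended the call as well (adjusted p by limma = 0.101, 0.0687 and 0.127), as did leaving out Arrdc2 library 6, 7 or 11 (0.0832, 0.0992 and 0.108), fitting with no filter on low values (0.0986) or no trend (0.0664), and scaling by total reads (0.075). Nebulin, the giant protein that runs along the thin filament, was not called. Neb had 28462, 29232, 28714, 31209 and 29276 normalised reads in the GFP libraries and 30343, 30020.2, 25557, 24523 and 27144 in the Arrdc2 libraries. Arrdc2 libraries 6 and 7 were within the GFP range and libraries 9, 10 and 11 below every GFP library (0.934-fold of GFP with a 95% interval of 0.866 to 1.01, adjusted p by limma = 0.174). Without Arrdc2 library 6 it passed narrowly (adjusted p by limma = 0.0499).

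Of the thick filament's myosin light chains, which brace the lever arm of the myosin head, Myl4, Myl2 and Mylpf fell. Myl4, the atrial and embryonic essential light chain, had 11798, 12339, 13074, 11214 and 11601 normalised reads in the GFP libraries and 8183, 9223, 9051, 11555 and 9098 in the Arrdc2 libraries. Arrdc2 library 10 was within the GFP range and the other 4 were below it. Myl4 was 1.28-fold lower, 95% interval 1.16 to 1.41 (log2 difference −0.28 ± 0.05 SE, adjusted p by limma = 0.00049). Myl2, the slow and ventricular regulatory light chain, was scarce, with 146, 199, 220.2, 156 and 167 normalised reads in the GFP libraries and 101, 83.8, 112, 162 and 124 in the Arrdc2 libraries. Again only Arrdc2 library 10 was inside the GFP range. Myl2 was 1.54-fold lower, 95% interval 1.24 to 1.91 (log2 difference −0.21 ± 0.05 SE, adjusted p by limma = 0.00339), the largest fold in reads of any tested member. Mylpf, the abundant fast regulatory light chain, had 64762, 65145, 62976, 56758 and 61654 normalised reads in the GFP libraries and 53199.5, 55990.4, 54789, 60604 and 55799 in the Arrdc2 libraries. GFP library 6 was low and Arrdc2 library 10 high, so the groups overlapped. Mylpf was 1.11-fold lower, 95% interval 1.04 to 1.18 (log2 difference −0.12 ± 0.04 SE, adjusted p by limma = 0.0169), and leaving out GFP library 3 or 4 ended the call (adjusted p by limma = 0.0508 and 0.0534), as did scaling by total reads (0.057). Myl1, the fast essential light chain, had 33991, 33221, 31469.9, 29638 and 32645 normalised reads in the GFP libraries and 33698, 33508, 30317, 32322 and 32943 in the Arrdc2 libraries. All Arrdc2 libraries were within the GFP range, and Myl1 was not called (1.01-fold of GFP with a 95% interval of 0.954 to 1.07, adjusted p by limma = 0.802).

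Myosin-binding protein C, which links thick filaments and tunes cross-bridges, differed by isoform. The fast form Mybpc2 had 2095, 2371, 2098, 1919 and 2156 normalised reads in the GFP libraries and 1948, 1869, 1383, 1743 and 1859 in the Arrdc2 libraries. Arrdc2 library 9 was the lowest by a wide margin and library 6 lay within the GFP range. Mybpc2 was 1.21-fold lower, 95% interval 1.09 to 1.35 (log2 difference −0.21 ± 0.05 SE, adjusted p by limma = 0.00683). The slow form Mybpc1 had 624, 617, 622, 582 and 641 normalised reads in the GFP libraries and 637, 665, 630.1, 627 and 620.2 in the Arrdc2 libraries, with overlapping groups (1.03-fold of GFP with a 95% interval of 0.963 to 1.1, adjusted p by limma = 0.523). Mybph, a related myosin-binding protein abundant in developing muscle, had 17131, 20275, 23509.7, 17499 and 17317 normalised reads in the GFP libraries and 14702, 15534, 18927, 20709 and 15932 in the Arrdc2 libraries. It varied widely within both groups, with GFP libraries 4 and 5 and Arrdc2 libraries 9 and 10 high. Mybph was not called (0.896-fold of GFP with a 95% interval of 0.786 to 1.02, adjusted p by limma = 0.195), and leaving out Arrdc2 library 10 brought it past the threshold as lower (adjusted p by limma = 0.0336). Of its exon bases, 1162 of 2329 overlap Adora1 on the opposite strand, which had 45.7 ± 6.96 and 41.8 ± 5.08 normalised reads in GFP and Arrdc2 (SD, n = 5).

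In the M-band, Myom2, the myomesin of fast fibres, had 28834, 28046, 26815, 28859.6 and 29059.9 normalised reads in the GFP libraries and 26416, 25934, 21362, 21603 and 24749.8 in the Arrdc2 libraries. All Arrdc2 libraries were below all GFP libraries, with libraries 9 and 10 lowest. Myom2 was 1.18-fold lower, 95% interval 1.1 to 1.28 (log2 difference −0.20 ± 0.04 SE, adjusted p by limma = 0.00228). Under quantile normalization the difference was smaller and not called (log2 difference −0.08, adjusted p by limma = 0.146). Myom1, the form of all striated muscle, was not called (0.929-fold of GFP with a 95% interval of 0.875 to 0.987, adjusted p by limma = 0.0601), although 4 of its 5 Arrdc2 libraries were below the lowest GFP library and leaving out the remaining one, library 11, brought it past the threshold (adjusted p by limma = 0.0375). Myom3, associated with slow and intermediate fibres, had 5224, 5396, 5586, 5984 and 5302 normalised reads in the GFP libraries and 6466, 6105, 5200.2, 5208 and 5104 in the Arrdc2 libraries. Arrdc2 libraries 6 and 7 were above every GFP library and the other 3 below every one. Myom3 was not called (1.02-fold of GFP with a 95% interval of 0.932 to 1.11, adjusted p by limma = 0.781). Titin, the elastic giant of the sarcomere, had 60379, 62551, 69142, 79796 and 67495 normalised reads in the GFP libraries and 69172, 71644, 63004, 48525 and 55199 in the Arrdc2 libraries. GFP library 6 was the highest of all, and Arrdc2 libraries 10 and 11 were below every GFP library. Its coefficient of variation was 11.1% in GFP and 15.7% in Arrdc2, against medians of 5.28% and 5.72% over the tested members, and it was not called (0.901-fold of GFP with a 95% interval of 0.793 to 1.02, adjusted p by limma = 0.216).

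Several of these genes were lowest in the same Arrdc2 libraries, a description chosen after their values were seen. Ttn, Neb, Nrap, Myom2 and Des were each lower in libraries 9, 10 and 11 than in libraries 6 and 7. Transcripts of Ttn (100404 bases) and Neb (22489) are longer than 10000 bases, while those of Nrap (5501), Myom2 (5075) and Des (3028) are not. The median log2 ratio to the GFP mean over 249 genes with transcripts of at least 10000 bases and at least 100 normalised reads was 0.03 and 0.02 in Arrdc2 libraries 6 and 7, and −0.03, −0.13 and −0.08 in libraries 9, 10 and 11. For 633 genes with transcripts under 1000 bases it was −0.05 and −0.01 in libraries 6 and 7, and −0.01, 0.08 and 0.01 in libraries 9, 10 and 11. GFP library 6, which had the most Ttn, was at 0.07 for the long and −0.04 for the short transcripts. The part of transcript length in the members' differences was not tested.

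**Figure D3:**
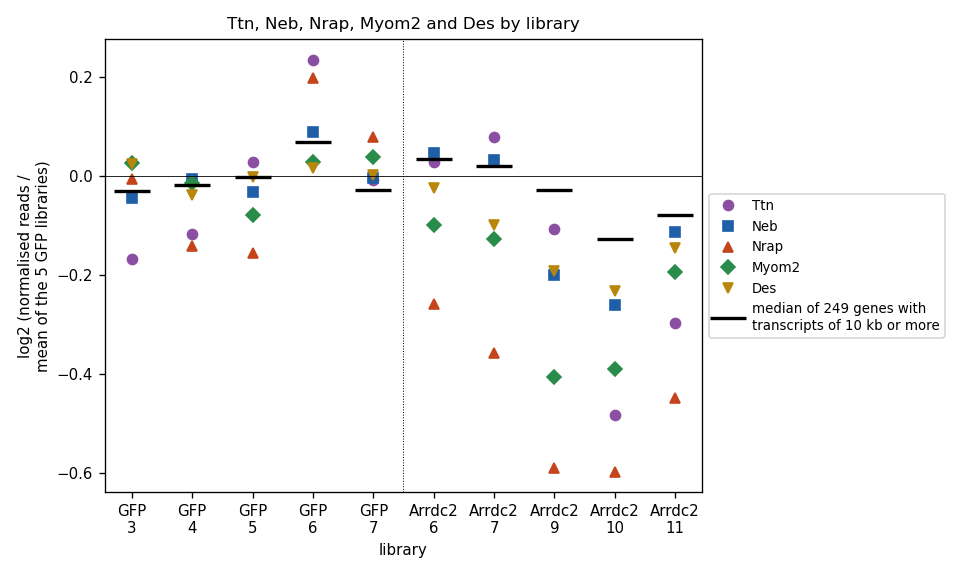
Log2 of normalised reads over the GFP mean in each of the 10 libraries for Ttn, Neb, Nrap, Myom2 and Des, with a bar at the median of 249 genes that have transcripts of 10 kb or more. All 5 genes are lower in Arrdc2 libraries 9, 10 and 11 than in Arrdc2 libraries 6 and 7, and the bar is lowest in library 10. Of the 5 genes, only Ttn and Neb have transcripts of 10 kb or more.

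Of the 11 tested Z-disc and intermediate filament genes, 3 fell, where 15.8% of all tested genes fell (25.7% at a mean rlog of 10 or more). Nrap, a nebulin-related anchoring protein that scaffolds forming myofibrils, had 5905, 5374, 5323, 6798 and 6264 normalised reads in the GFP libraries and 4959.6, 4626, 3939, 3920.2 and 4346 in the Arrdc2 libraries. The highest Arrdc2 library was below the lowest GFP library. Nrap was 1.36-fold lower, 95% interval 1.23 to 1.51 (log2 difference −0.35 ± 0.05 SE, adjusted p by limma = 7.91e-05), the largest difference of the 37 on the rlog scale. Myoz2, the calsarcin of slow and cardiac muscle, which binds alpha-actinin and calcineurin, had 1299, 1379, 1416, 1161 and 1369 normalised reads in the GFP libraries and 970.1, 1063, 1017, 1238 and 1008 in the Arrdc2 libraries. Arrdc2 library 10 lay within the GFP range and the others below it. Myoz2 was 1.25-fold lower, 95% interval 1.14 to 1.37 (log2 difference −0.22 ± 0.04 SE, adjusted p by limma = 0.000741). Desmin, the muscle intermediate filament that ties Z-discs together, had the most reads of all members, with 97748, 93615, 96048, 97312 and 96341 normalised reads in the GFP libraries and 94611, 89843, 84221, 81916 and 86968 in the Arrdc2 libraries. The GFP libraries were tightly grouped, and Arrdc2 library 6 alone lay inside their range. Des was 1.1-fold lower, 95% interval 1.04 to 1.16 (log2 difference −0.11 ± 0.03 SE, adjusted p by limma = 0.0177), and leaving out Arrdc2 library 9 ended the call (adjusted p by limma = 0.0531), as did quantile normalization (log2 difference −0.05, adjusted p by limma = 0.366).

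The alpha-actinins, which cross-link actin in the Z-disc, were not called. Alpha-actinin 3, the fast form, had 21986, 21876, 22336, 21474 and 21323 normalised reads in the GFP libraries and 21280.3, 21374, 20332, 20564 and 21569 in the Arrdc2 libraries. Alpha-actinin 2 had 1903, 2029.7, 2401, 2087 and 1952 normalised reads in the GFP libraries and 2128, 1985, 2084, 2054 and 1758 in the Arrdc2 libraries. The groups overlapped for both, with Arrdc2 libraries 6, 9 and 10 below every GFP library for Actn3 and library 11 for Actn2. Actn3 was at 0.964-fold of GFP with a 95% interval of 0.921 to 1.01 (adjusted p by limma = 0.267), and Actn2 at 0.965-fold of GFP with a 95% interval of 0.884 to 1.05 (adjusted p by limma = 0.567). Myoz1, the fast calsarcin, had 142, 138, 129.5, 134 and 134 normalised reads in the GFP libraries and 145, 171, 104, 104 and 142 in the Arrdc2 libraries. Its Arrdc2 libraries spread to both sides of a tight GFP group and gave no call (0.962-fold of GFP with a 95% interval of 0.802 to 1.15, adjusted p by limma = 0.853). Pdlim3 and Ldb3, the latter also called ZASP or Cypher, are PDZ and LIM proteins of the Z-disc. Pdlim3 had 10128, 10014, 10175, 10267 and 10314 normalised reads in the GFP libraries and 11489.5, 11095, 10178, 10494 and 11024 in the Arrdc2 libraries, with 4 Arrdc2 libraries above the highest GFP library (1.07-fold of GFP with a 95% interval of 1.01 to 1.12, adjusted p by limma = 0.0712). It was called higher when Arrdc2 library 9 or 10 was left out (adjusted p by limma = 0.0336 and 0.0487). Ldb3 had 3872 ± 242 and 4148 ± 189.5 normalised reads in GFP and Arrdc2 (SD, n = 5; 1.07-fold of GFP with a 95% interval of 1 to 1.14, adjusted p by limma = 0.102) and was called higher when GFP library 5 was left out (adjusted p by limma = 0.0239). The titin cap Tcap (0.948-fold of GFP with a 95% interval of 0.825 to 1.09, adjusted p by limma = 0.565), myotilin Myot (0.961-fold of GFP with a 95% interval of 0.82 to 1.13, adjusted p by limma = 0.712) and the small stretch-responsive protein Smpx (0.96-fold of GFP with a 95% interval of 0.895 to 1.03, adjusted p by limma = 0.354) were not called.

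Genes of both fast and slow form were among those that fell, where 15.8% of all tested genes fell (25.7% at a mean rlog of 10 or more). Of 8 fast genes 3 fell (Tnnc2, Mybpc2 and Mylpf) with a median log2 difference of −0.09, and of 7 tested slow genes 4 fell (Tnni1, Tnnc1, Myl2 and Myoz2) with a median of −0.12. Summed over each list, slow genes had 78304 to 85721 normalised reads in GFP and 68862 to 76770 in Arrdc2 libraries, ranges that did not overlap. The sums of fast genes were 165427 to 185875 and 158371 to 172481, which overlapped. Tnnc1 gave the most reads of the slow list, and its groups did not overlap. Those of Tnnt1, Tnni1, Tpm3, Myoz2, Mybpc1 and Myl2 did. Each of these genes, and the untested Myl3, had more normalised reads in Arrdc2 library 10 than in GFP library 6. Without Tnnc1 the sums of the slow genes would therefore overlap as well, so the gap is not shown for the other slow genes. The comparison within a library is free of its scaling, so a ratio was taken for 7 pairs whose genes both passed the filter. In 6 pairs it is the fast to the slow gene, and in the alpha-actinins the fast form Actn3 to Actn2, the form of all fibres. Each ratio was tested on the rlog scale, unless recovered reads are named. The test was an exact 2-sided permutation test over 252 assignments of the libraries (smallest possible p = 0.00794), with Benjamini-Hochberg adjustment over the 7 pairs.

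Only 2 of the 7 pairs passed, in opposite directions. The read ratio of Tnnc2 to Tnnc1 was 0.423, 0.427, 0.436, 0.406 and 0.405 in the GFP libraries and 0.485, 0.469, 0.490, 0.474 and 0.476 in the Arrdc2 libraries. All 5 Arrdc2 ratios were above all GFP ratios, and the difference in log2 ratio on the rlog scale was 0.15 (exact permutation p = 0.00794, adjusted p = 0.0278). The overlap of Tnnc2 with Ube2c, which rose, touches this ratio, and its part in it was not tested. The read ratio of Mybpc2 to Mybpc1 was 3.36, 3.84, 3.37, 3.29 and 3.36 in the GFP libraries and 3.05, 2.81, 2.19, 2.78 and 2.99 in the Arrdc2 libraries. All 5 were lower, by −0.23 in log2 ratio (exact permutation p = 0.00794, adjusted p = 0.0278). The troponin T ratio, Tnnt3 to Tnnt1, was 3.497 ± 0.0850 in GFP and 3.490 ± 0.111 in Arrdc2 libraries (SD, n = 5; exact permutation p = 0.865). The troponin I ratio, Tnni2 to Tnni1, was 0.410 ± 0.0202 and 0.419 ± 0.0263 (SD, n = 5; exact permutation p = 0.571), and Actn3 to Actn2 was 10.6 ± 0.839 and 10.6 ± 1.03 (SD, n = 5; exact permutation p = 0.929). Myoz1 to Myoz2 was 0.103 ± 0.00952 and 0.128 ± 0.0327 (SD, n = 5; exact permutation p = 0.0556, adjusted p = 0.1296), with 4 Arrdc2 libraries above the highest GFP library on the rlog scale. Leaving out Arrdc2 library 10 gave an adjusted p of 0.0370 on that scale. In recovered reads the exact permutation p for Myoz1 to Myoz2 was 0.167, and Arrdc2 library 10 (0.0849) lay below the lowest GFP ratio (0.0921, library 5). Mylpf to Myl2 did not pass on the rlog scale (difference 0.09, exact permutation p = 0.175, adjusted p = 0.306), where the scarce Myl2 is strongly shrunk, but did in recovered reads (difference 0.47, exact permutation p = 0.0159, adjusted p = 0.0370). With 1 GFP library left out there are 126 assignments, and the exact permutation p was 0.00794 for the troponin C pair, the smallest that design can give, and 0.0159 for the Mybpc pair, whichever GFP library it was. The adjusted p over 7 pairs was then 0.0556 for both. With 1 Arrdc2 library left out both had an exact permutation p of 0.00794 and an adjusted p of 0.0278.

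**Figure D4:**
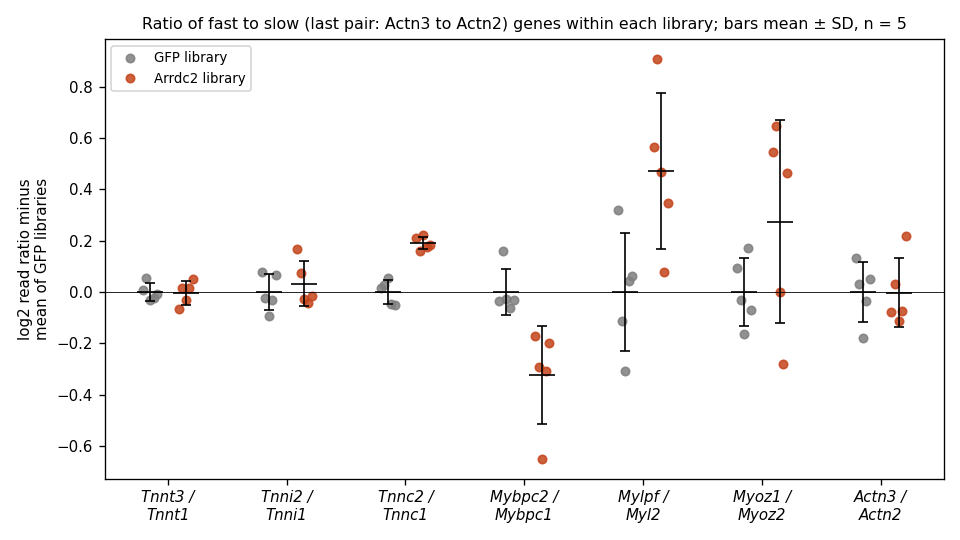
Log2 ratio of reads of the first gene to the second in each library, minus its mean over the GFP libraries, for 7 pairs, with mean ± SD and n = 5 libraries per group. Tnnc2 to Tnnc1 is higher and Mybpc2 to Mybpc1 lower in all 5 Arrdc2 libraries, and the troponin T, troponin I and alpha-actinin pairs lie around 0.

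By filament class, 6 of 15 thin-filament genes fell (median log2 difference −0.08), 4 of 7 tested thick-filament genes (median −0.13), 1 of 3 M-band genes (median −0.08), 3 of 11 tested Z-disc and intermediate filament genes (median −0.04), and titin was not called (−0.12). Over all tested genes 15.8% fell, and 25.7% of those with a mean rlog of 10 or more. No test compared the classes.

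Genes that work with these proteins gave a mixed picture. Beside the counts below, 15.8% of all tested genes fell and 14.5% rose (25.7% and 14.3% at a mean rlog of 10 or more). The lists here and in the next paragraph were chosen with earlier results of these data known. Their counts are therefore descriptions and do not test an excess over those shares. Among 10 myosin heavy chain and actin genes 2 fell, the perinatal heavy chain Myh8 (1.27-fold lower, adjusted p by limma = 1.49e-05) and Acta1. Of 23 Z-disc, M-band and titin-associated genes outside the members 11 fell and the other 12 were not called. The 5 largest differences on the rlog scale, given here as folds of reads, were those of the Xin-repeat genes Xirp2 (2.27-fold) and Xirp1 (1.39-fold), the small heat-shock protein gene Cryab (1.51-fold), filamin C, Flnc (1.41-fold), and the titin-binding Ankrd1 (1.3-fold), with a median log2 difference of −0.13 over the list. Ankrd2, another titin-binding gene of the list, fell 1.5-fold in reads. Of 13 assembly and turnover factors the ubiquitin ligase genes Trim63 and Trim54 fell (1.14-fold and 1.13-fold), while the ligase gene Fbxo32 and the formin gene Fhod1 rose (1.16-fold and 1.17-fold). Trim63 and Fhod1 held their calls under all 18 alternatives. Trim54 was called under 10 of the 18, and its call was lost without GFP library 3 or 6 or Arrdc2 library 9 or 11 (adjusted p by limma = 0.0685, 0.0943, 0.0837 and 0.0719), and that of Fbxo32 without GFP library 5 or Arrdc2 library 7 (0.0504 and 0.054). Of 15 non-muscle paralogs 3 fell, Actn1 (1.3-fold), Nes (1.25-fold) and Myl6b (1.13-fold).

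Of 8 myoblast and proliferation markers 5 rose (Cdk1 1.35-fold, Ccnb1 1.34-fold, Top2a 1.2-fold, Pax7 1.24-fold and Myf5 1.17-fold), where 14.5% of all tested genes rose and 15.8% fell. The summed reads of all 8 were 12456 to 14246 in GFP and 14126 to 18206 in Arrdc2 libraries. Of 6 fibroblast markers 4 were tested and 1 rose (Dcn, 1.34-fold), with Lum and Thy1 near 0 and sums of 28253 to 36411 and 28469 to 35263 reads. Of 6 cardiac markers 3 were tested, and Tnni3 rose (1.45-fold), with Nppa and Mybpc3 near 0 and sums of 138 to 166 reads in GFP and 131 to 173 in Arrdc2 libraries. Myh6 fell (adjusted p by limma = 0.0322) but was called in only 4 of the 10 fits that left out 1 library. Of 5 smooth muscle markers Smtn rose (1.23-fold) and Tagln fell (1.39-fold), with sums of 37158 to 42301 and 33726 to 40451 reads, most of them Acta2. The part of these markers in the members' differences was not tested.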

How the data were processed

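Polyadenylated RNA was sequenced as directional paired-end libraries, per the labels' protocols. The submitters' processing notes name STAR 2.7.10a, DESeq2 1.30.1 and the build GRCm39. Their deposited table holds regularized log (rlog) values on a log2 scale, which the authors made with shrinkage of scarce genes towards their mean. The counting tool, annotation and strand setting were not stated in the sources used here.

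Groups come from the labels. Table columns carry library numbers that do not match the labels' replicate numbers. Genes with a mean rlog of 3 or more were tested with limma 3.58.1 in R 4.3.3 (mean-variance trend, Benjamini-Hochberg over 15223 genes, threshold 0.05). Whole reads were recovered by inverting the rlog fit with size factors and dispersion trend estimated on one set of genes. Over 10620 held-out genes 99.11% of values came out whole to within 0.1 reads (89.43% for genes above 10000 reads), where 20% would by chance. Folds, 95% intervals and normalised reads come from these reads (voom). The limma and voom fits were also run on simulated data with noise drawn independently for each gene and library. That check does not cover shifts shared by many genes of a library. Isoform read ratios carried a pseudocount of 1 read. The exact 2-sided permutation test was run on rlog ratios, and on read ratios where named. Transcript lengths, overlaps and promoters are from annotation of GRCm38, another build than the table's, and only promoter coordinates are given in it.

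Every tested member could be named, with values per library for those called or paired and for some others. Outside the members, at most the 5 called genes with the largest difference in each list were named, and Ankrd2 in addition. Some uncalled genes of the lists were also named, as were genes that overlap or resemble a member. Members and lists were chosen with earlier results of these data known. Alternatives covered the low-value filter, scaling, trend, library weights, voom and each library left out.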

Additional observations from a re-analysis of the deposited data

Results flagged for a closer look

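In 74 groups of 5 libraries, 1 per tested gene and condition, a library was compared with the others of its group, and 2 groups held an outlying value where chance gives about 1 in 20. Tnnt2 had 26783 normalised reads in GFP library 6, against 28457 to 28775 in the other 4 GFP libraries. Tpm2 had 39431 normalised reads in Arrdc2 library 11, against 41447 to 41825 in the other 4 Arrdc2 libraries. The gap to the nearest library was 0.846 of the group's range for Tnnt2 and 0.850 for Tpm2, above the critical ratio of 0.71.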

How the results depend on the processing

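Of 666 member values under 18 alternatives, 590 kept direction and side of the threshold, 30 lost the call, 34 gained one and 12 changed sign, all 12 of them uncalled under that alternative. With Tnni1, a called gene whose sign changed under quantile normalization, 31 calls were lost. The cause of these changes was not tested. Nrap, Myl4, Tnnc1, Myoz2, Myl2, Mybpc2 and Lmod2 were called lower under all 18. Quantile normalization gave 9 members lower and 3 higher (Tmod1, Ldb3 and Pdlim3), as did voom scaled by total reads. The median log2 difference of all genes was 0.05 by voom scaled by total reads and 0.01 by voom with size factors. Library weights gave 3 members higher and a fit with no trend gave 1. Leaving out 1 library gave 11 to 18 lower and 0 to 2 higher. Under quantile normalization the log2 difference changed sign for Neb (0.021), Tnnt2 (0.026), Tnni1 (0.020) and Actn3 (0.022), and under library weights for Myoz1 (0.0096). With 1 library left out it ranged from −0.010 to 0.034 for Myl1, −0.021 to 0.046 for Myom3, −0.059 to 0.0031 for Actn2, −0.044 to 0.015 for Myoz1 and −0.058 to 0.013 for Myot.

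With 1 library left out the log2 ratio difference ranged from 0.14 to 0.17 for Tnnc2 to Tnnc1, −0.26 to −0.17 for Mybpc2 to Mybpc1, 0.18 to 0.28 for Myoz1 to Myoz2, −0.015 to 0.0092 for Tnnt3 to Tnnt1, −4.0e-05 to 0.043 for Tnni2 to Tnni1 and −0.046 to 0.020 for Actn3 to Actn2. Recovered reads gave 0.47 for Mylpf to Myl2. No paired analysis was possible because the table numbers its libraries differently from the labels, which leaves no way to pair them. The rlog scale shrinks scarce genes, so Myl2 and Tmod4 have larger folds in reads than on that scale, and Myl3 and Myoz3 were too scarce to test.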
